A study of Mus musculus with 20 samples.

Results

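Iron and heme handling in the injured mouse forebrain was followed through 10 genes, named for their known roles out of 39017 gene identifiers counted, with earlier results of these data known. The genes were Fth1 and Ftl1, which encode the ferritin chains; Hmox1, Slc40a1 and Cp, which act in heme breakdown and iron export; Tfrc, Trf, Slc11a2 and Slc11a1, which act in iron uptake and transport; and Lcn2. Each was matched to a single identifier, and all 10 were counted in microglia and in astrocytes. Total RNA had been sequenced from cells sorted from the left forebrain, the injured side, of male C57BL/6J mice 3 to 4 months old, 7 days after lateral fluid percussion injury (FPI) or sham surgery, with 5 libraries in each of 4 groups and 20 in all. All mice had a craniectomy, and all were connected to the injury device on the next day. In FPI mice a fluid pulse was driven against the exposed dura, and in sham mice no pulse was given. The labels and methods give no genetic change and no agent other than ketamine, xylazine and isoflurane for anesthesia, and each library came from the cells of a single animal. Microglia were gated as CD11b+ cells with intermediate CD45, a gate that does not by itself separate microglia from every other myeloid cell, and astrocytes by ACSA-2.

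Cells hold iron in ferritin, a shell of heavy chains, which oxidize the metal, and light chains, which help it to mineralize. Iron bound to transferrin (Trf) enters through the transferrin receptor (Tfrc), crosses the endosomal membrane through DMT1 (Slc11a2), and leaves the cell only through ferroportin (Slc40a1), helped by the ferroxidase ceruloplasmin (Cp). Heme oxygenase 1 (Hmox1) frees iron from heme, for instance heme from red cells after bleeding. NRAMP1 (Slc11a1) moves metal ions out of the phagosomes of macrophages and microglia, and lipocalin 2 (Lcn2) binds iron carried by bacterial siderophores. In brain, oligodendrocytes are known as the richest source of transferrin RNA and hold much ferritin, microglia and macrophages clear heme and debris, and ceruloplasmin is made by astrocytes as a membrane-anchored form.

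The RNAs of several of these genes carry an iron-responsive element (IRE), a short hairpin bound by iron regulatory proteins when iron is scarce. An IRE before the coding sequence then blocks translation, and IREs behind it protect the RNA from decay, so that ferritin protein can change without any change in ferritin RNA while Tfrc is controlled through its RNA level. The sequences are shown because RNA counts bear differently on these 2 kinds of gene. The GENCODE M21 coding transcripts were searched on the sense strand for a bulged C, 5 bases, the loop CAGTGN and 5 bases that pair with the first 5, G with T allowed. Of the 10 genes 4 held the motif, and 294 of 21901 protein-coding genes did (1.34%), 30 of them (0.14%) with at least 4 pairs in a lower stem of 5 bases. This search misses elements of any other form, such as an interrupted stem. The other genes are therefore not shown to lack an IRE, and a gene with the motif may hold further elements. Positions are on GRCm38. The motif lay in the 5′ UTR of Fth1 at chr19:9982733-9982759 on the plus strand, of Ftl1 at chr7:45459780-45459806 on the minus strand and of Slc40a1 at chr1:45925466-45925492 on the minus strand. Tfrc held 4 of them in its 3′ UTR on the plus strand, at chr16:32631220-32631246, chr16:32631599-32631625, chr16:32631664-32631690 and chr16:32631711-32631737. Each stretch below spans 27 bases, 5′ to 3′, with the 6 bases of the loop in capitals.
Fth1: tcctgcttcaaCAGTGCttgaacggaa
Ftl1: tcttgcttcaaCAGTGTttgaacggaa
Slc40a1: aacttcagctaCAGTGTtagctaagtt
Tfrc element 1: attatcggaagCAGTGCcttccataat
Tfrc element 2: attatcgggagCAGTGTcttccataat
Tfrc element 3: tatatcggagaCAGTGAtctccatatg
Tfrc element 4: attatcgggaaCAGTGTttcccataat

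Levels were expressed as CPM, counts scaled to a common library total, with TMM factors over the 20 libraries, whose summed gene counts ran from 5623349 to 13110857. By markers of microglia and astrocytes the sorts matched their labels. The summed level of 8 microglial markers was 15924 to 25220.2 CPM in microglia and 31.6 to 141 CPM in astrocytes, and that of 8 astrocyte markers was 9959 to 31232 CPM in astrocytes and 233 to 600.1 CPM in microglia. The astrocyte libraries also held 1419 to 16919.9 CPM of 8 oligodendrocyte markers, against 99.6 to 247 CPM in microglia. In sham astrocyte library 4 these exceeded the astrocyte markers, at 16919.9 against 9959 CPM. In FPI astrocyte library 4 they came close, at 10589 against 11452 CPM. The name of FPI astrocyte library 5 ends like that of a microglia library and shares its animal number with FPI astrocyte library 2. It was kept in the group of its title, and its markers were those of astrocytes. By animal number, both cell types came from 3 of the mice. Microglia replicates 1 to 3 and 4 and 5 carry different series of animal numbers, and the summed level of 7 monocyte and macrophage markers was 129 to 404 CPM in the first and 18.6 to 65.2 CPM in the second. P-values below measure the spread between these libraries, and in sorted bulk RNA fewer cells of a type and less RNA per cell cannot be told apart.

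**Figure D1:**
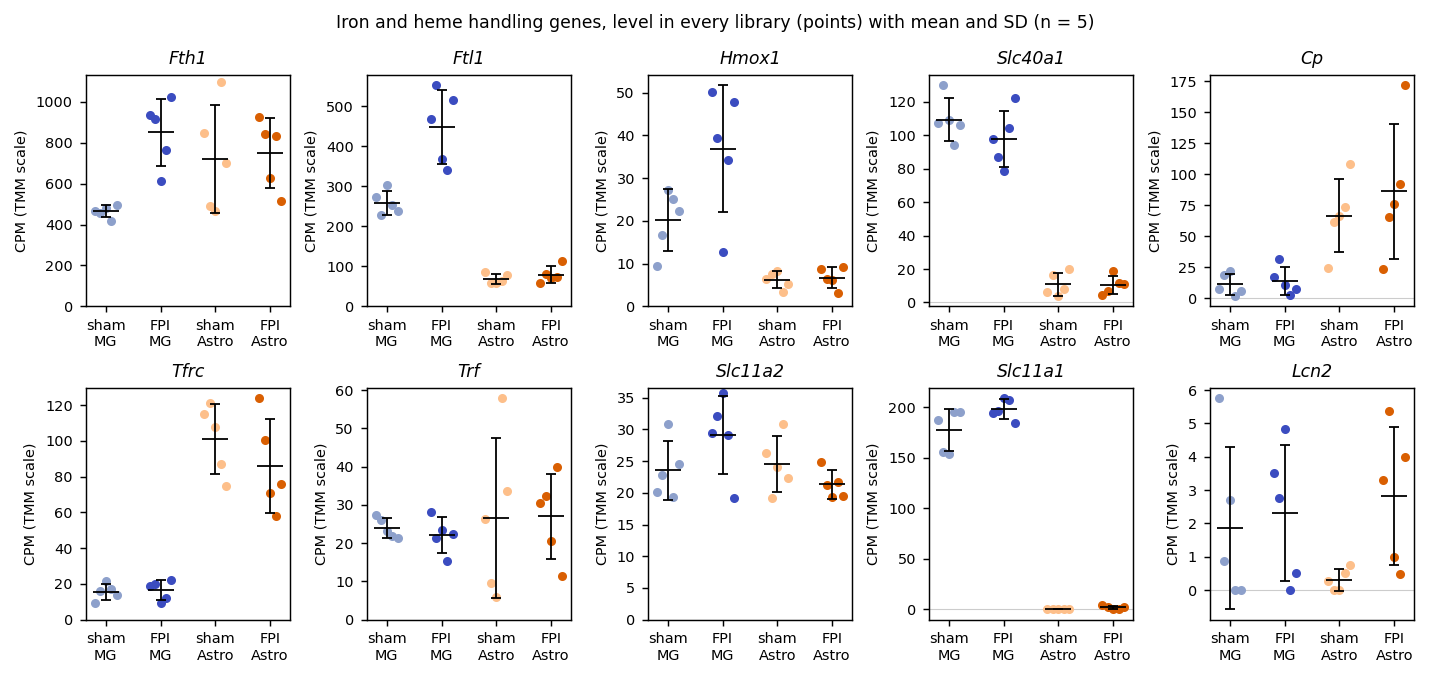
Level of each of the 10 genes in every library, in CPM on the TMM scale (y axis, linear, a separate range for each gene), for sham and FPI microglia (MG) and sham and FPI astrocytes (Astro). Points are libraries, and bars are the mean and SD of 5 libraries. The FPI microglia lie above all sham microglia for Fth1 and Ftl1, while the other 8 genes overlap between sham and FPI in both cell types.

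Both ferritin genes rose in microglia after FPI, and they were the only 2 of the 10 genes called there. Fth1, the heavy chain, rose 1.86-fold and Ftl1, the light chain, 1.75-fold, and for both every FPI library exceeded every sham library. Fth1 (ENSMUSG00000024661, chr19:9980598-9985098, plus strand) stood at 469, 459, 481, 418 and 495 CPM in sham microglia 1 to 5 and at 938, 916, 614, 763 and 1022 CPM in FPI microglia 1 to 5. The sham libraries were close together, and the FPI libraries spread more widely, with FPI library 3 the lowest. The means were 464 ± 29.2 and 851 ± 162 CPM (SD, n = 5 each), a log2 fold change of 0.89 ± 0.14 (SE) at an adjusted p of 0.00118 by edgeR's quasi-likelihood test, rank 48 of 12143 genes tested by p. Ftl1 (ENSMUSG00000050708, chr7:45457944-45459884, minus strand) stood at 274, 228, 303, 254 and 237 CPM in sham microglia and at 468, 554, 367, 341 and 515 CPM in FPI microglia. Again no FPI library fell among the sham libraries, and here FPI library 4 was the lowest. The means were 259 ± 30.2 and 449 ± 92.3 CPM (SD, n = 5 each), a log2 fold change of 0.81 ± 0.15 (SE) at an adjusted p of 0.00421 by edgeR, rank 75.

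Calls required a log2 fold change beyond 0.6 in either direction and an adjusted p under 0.1. By that rule 285 of the 12143 genes (2.35%) were called in microglia, and 2.13% were called higher in FPI. Groups did not overlap for 3.43% of the genes tested. Ferritin was called in all 20 other fits, which reuse the same libraries, with a log2 fold change from 0.80 to 1.02 for Fth1 and from 0.73 to 0.89 for Ftl1. With all 20 libraries fitted together the adjusted p by edgeR was 0.0914 for Fth1 and 0.0608 for Ftl1, near the limit for a call. Within replicates 1 to 3 alone the log2 fold changes were 0.80 and 0.77, at adjusted p = 0.0186 and 0.0264 by edgeR, and within replicates 4 and 5 alone they were 1.02 and 0.85, at adjusted p = 0.0333 and 0.0943.

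Markers of other brain cells also moved with FPI in the microglia libraries. The summed oligodendrocyte markers were 99.6 to 150.4 CPM in sham and 152 to 247 CPM in FPI microglia, and the summed astrocyte markers were 233 to 347 and 287 to 600.1 CPM. In means the oligodendrocyte markers differed by 55.6 CPM and the astrocyte markers by 122 CPM, beside 387 CPM for Fth1 and 189.8 CPM for Ftl1. By edgeR, 5 of 8 astrocyte markers were higher at an unadjusted p below 0.05, 0 were lower and 1 was called. Of 6 oligodendrocyte markers tested 3 were higher, 0 lower and 1 called. Of 3 oligodendrocyte precursor markers tested 1 was higher and called, and 1 was lower. The summed microglial markers went the other way, from a mean of 22232 CPM in sham to 20138 CPM in FPI, with 3 of 8 lower at an unadjusted p below 0.05 and 0 called, and the macrophage markers from 223 to 131 CPM. The part of these markers in the ferritin result was not tested. Reads of ferritin genes can also be shared with genes named as their pseudogenes. Of the counts on Ftl1 and 3 such genes, 3.99% to 9.01% were on the 3 in microglia. Of these 3, Ftl1-ps1 is annotated as protein-coding and the others as processed pseudogenes. For Fth1 and 1 processed pseudogene the share in microglia was at most 0.728%. How reads with several matches were counted is not given in the sources used here.

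Hmox1, the heme-degrading enzyme, had a fold change as large as ferritin's but was not called in microglia. Its level was 9.50, 16.8, 27.3, 25.1 and 22.3 CPM in sham microglia 1 to 5 and 50.1, 39.4, 12.8, 34.2 and 47.9 CPM in FPI microglia 1 to 5. FPI libraries 1, 2, 4 and 5 lay above all sham libraries, and FPI library 3 lay below 4 of them. The log2 fold change was 0.90 ± 0.31 (SE), with an adjusted p of 0.198 by edgeR. Without FPI library 3 it was 1.12 at adjusted p = 0.0126 by edgeR, and with no filter on low counts it was 0.89 at adjusted p = 0.0203. DESeq2 gave an adjusted p of 0.106 with all libraries, and the adjusted p ran from 0.0126 to 0.425 over the 20 other fits. FPI microglia library 3 was also the lowest of the FPI microglia for Fth1, Tfrc and Slc40a1.

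The exporter and the uptake genes were not called in microglia. Slc40a1, the iron exporter, was at 107, 129.9, 109, 94.2 and 106 CPM in sham and 97.5, 86.9, 78.5, 104 and 122 CPM in FPI microglia, and the groups overlapped over most of their range. Its log2 fold change was -0.14 ± 0.14 (SE), adjusted p = 0.813 by edgeR. Tfrc, whose RNA carries the 3′ elements shown above, was at 9.37, 16.3, 21.4, 17.4 and 13.6 CPM in sham and 18.8, 20, 9.28, 12 and 22.4 CPM in FPI microglia. The libraries of both groups were interleaved, and the log2 fold change was 0.10 ± 0.28 (SE), adjusted p = 0.949. Slc11a2, the endosomal iron transporter, had a log2 fold change of 0.31 ± 0.20 (SE), between 23.5 ± 4.59 and 29.1 ± 6.17 CPM, and Slc11a1, the phagosomal one, of 0.17 ± 0.11 (SE), between 178 ± 20.9 and 198 ± 9.76 CPM. Trf had a log2 fold change of -0.09 ± 0.19 (SE), between 24.0 ± 2.62 CPM in sham and 22.2 ± 4.61 CPM in FPI microglia (SD).

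In microglia the levels of Cp and Lcn2 went with the series of animal numbers. Cp, the ferroxidase, was at 7.87, 19, 21.7, 2.04 and 5.87 CPM in sham and 17.2, 31.5, 10.8, 3.08 and 7.17 CPM in FPI microglia. All 6 libraries of replicates 1 to 3 lay above all 4 of replicates 4 and 5, at 7.87 to 31.5 against 2.04 to 7.17 CPM. Lcn2 was at 0.878 to 5.75 CPM in replicates 1 to 3 and at 0 to 0.512 CPM in replicates 4 and 5. The summed level of 8 neutrophil markers was 2.57 to 24.9 CPM in the first series and 0.308 to 2.65 CPM in the second, beside the macrophage markers given above. Their part in these levels was not tested. FPI log2 fold changes were 0.30 ± 0.53 for Cp and 0.29 ± 1.04 for Lcn2 (SE), neither called, and within replicates 1 to 3 they were 0.28 and 0.22. Counting error limits Lcn2: it had no count in 5 of the 20 libraries, and a count of 0 allows 0.261 to 0.568 CPM there (3 counts, counting error only).

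**Figure D2:**
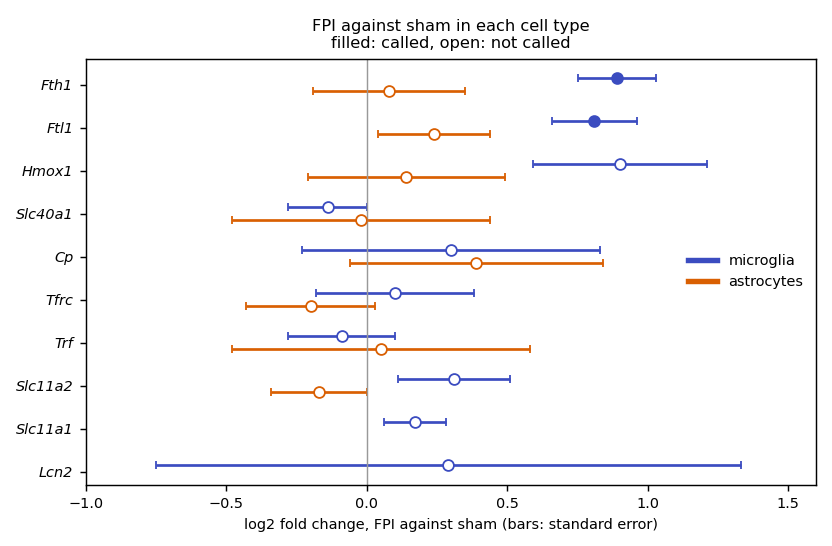
Log2 fold change of FPI against sham (x axis) with its standard error (bars) for each gene (y axis), from edgeR fits of 10 microglia libraries and 10 astrocyte libraries. Filled points were called and open points were not. Fth1 and Ftl1 in microglia are the only filled points, and Slc11a1 and Lcn2 have no astrocyte point because their counts were too low for the filter.

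In astrocytes no member was called, and ferritin did not separate the groups. Of 13741 genes tested 1 was called (0.00728%), and 0.713% had groups that did not overlap. The filter on low counts kept 8 of the 10 genes, of which 0 were called by edgeR, 0 had an unadjusted p below 0.05 and 0 were called by DESeq2. Fth1 was at 848, 489, 467, 1100 and 702 CPM in sham astrocytes 1 to 5 and at 927, 843, 629, 831 and 515 CPM in FPI astrocytes 1 to 5. The sham libraries spanned the whole range of the FPI libraries, and the log2 fold change was 0.08 ± 0.27 (SE). Ftl1 was at 85.2, 57.6, 58.1, 63.6 and 78.7 CPM in sham and 58.7, 81.5, 70.8, 72.5 and 113 CPM in FPI astrocytes, with a log2 fold change of 0.24 ± 0.20 (SE). FPI library 5 was the highest for Ftl1, and without it the log2 fold change was 0.05. Cp had the largest log2 fold change of the 8, 0.39 ± 0.45 (SE), from 24.7, 61.4, 66.6, 73.4 and 108 CPM in sham to 24.0, 66.0, 76.4, 92.6 and 172 CPM in FPI astrocytes. FPI library 5 was again the highest, and sham library 5 was the highest of the sham libraries. For Cp the log2 fold change was -0.04 without FPI library 5 and 0.63 without sham library 5. The others had log2 fold changes of -0.20 ± 0.23 for Tfrc, -0.17 ± 0.17 for Slc11a2, 0.14 ± 0.35 for Hmox1, 0.05 ± 0.53 for Trf and -0.02 ± 0.46 for Slc40a1 (SE).

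Trf and Fth1 followed the oligodendrocyte content of the astrocyte libraries. Trf was at 26.2, 9.49, 5.96, 58.0 and 33.6 CPM in sham and at 30.6, 32.4, 20.6, 40 and 11.3 CPM in FPI astrocytes, while the summed oligodendrocyte markers ran from 1419 to 16919.9 CPM in sham and from 2944 to 10589 CPM in FPI. Sham library 3 was the lowest of the 10 in both measures, and sham library 4 the highest. On log2 scales Pearson's r between Trf and the marker sum was 0.99 (permutation p = 2e-05, the smallest the permutations can give, adjusted p = 0.00016 over 8 genes) and Spearman's rho was 0.95 (permutation p = 0.00014, adjusted p = 0.00112, n = 10). For Fth1, r was 0.94 (permutation p = 6e-05, adjusted p = 0.00024) and rho 0.84 (permutation p = 0.00368, adjusted p = 0.0147). Without the 2 libraries farthest from the median marker sum, sham 3 and FPI 5, r was 0.98 for Trf and 0.93 for Fth1. Hmox1 ran the other way, with r of -0.70 (permutation p = 0.00842, adjusted p = 0.0225) and rho of -0.66 (permutation p = 0.0428, adjusted p = 0.114). For Ftl1, Tfrc, Slc40a1, Slc11a2 and Cp the adjusted permutation p was 0.353 or more for r. Endothelial markers summed to 23.2 to 455 CPM in astrocyte libraries, and oligodendrocyte precursor markers to 233 to 1332 CPM. Slc40a1 was highest in sham library 5, with the most endothelial markers, and Cp in FPI library 5, with the most precursor markers. Neither gene was lowest where those markers were lowest. Relations of the genes with these markers were not tested. The relation was looked for after the marker levels had been seen, FPI libraries 2 and 5 may share an animal, all levels share each library's total, and no correlation was computed within sham or FPI, which have 5 libraries each.

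**Figure D3:**
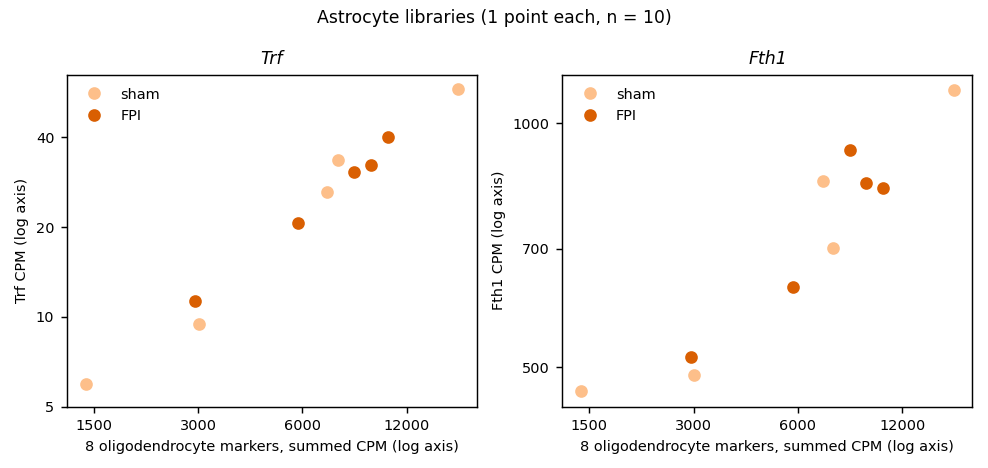
Level of Trf (left) and Fth1 (right) in CPM (y axis, log) against the summed CPM of 8 oligodendrocyte markers (x axis, log) in the 10 astrocyte libraries, 1 point each, in light orange for sham and dark orange for FPI. Both genes are lowest in the library with 1419 CPM of these markers and highest in the one with 16919.9 CPM, and sham and FPI points are mixed along the trend.

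Lcn2 and Slc11a1 were near the limit of detection in astrocytes and higher on average after FPI. Lcn2, a secreted siderophore-binding protein known as a marker of reactive astrocytes, had 2, 0, 0, 5 and 6 counts in sham astrocytes and 32, 43, 8, 4 and 25 in FPI astrocytes. FPI libraries 1, 2, 3 and 5 exceeded all sham libraries, and FPI library 4 did not. In CPM the means were 0.307 ± 0.330 and 2.83 ± 2.06 (SD, n = 5 each), and an exact permutation test gave p = 0.0238, two-sided, where 0.00794 is the smallest possible. With every gene kept, edgeR gave a log2 fold change of 3.17 ± 0.99 (SE) at an adjusted p of 0.887, and DESeq2 an adjusted p of 0.174. Slc11a1 had 0, 6, 2, 1 and 0 counts in sham and 36, 19, 0, 3 and 11 in FPI astrocytes. FPI libraries 1, 2 and 5 exceeded all sham libraries, and FPI libraries 3 and 4 did not. The means were 0.167 ± 0.217 and 1.64 ± 1.52 CPM (SD, n = 5 each, exact permutation p = 0.0873, two-sided), and edgeR with every gene kept gave an adjusted p of 0.887. Both permutation tests took every library as independent, although FPI libraries 2 and 5 carry the same animal number. If they share an animal, these p-values and the smallest possible one do not hold for animals. A count of 0, found in 3 astrocyte libraries, allows 0.374 to 0.398 CPM of Slc11a1 there.

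The microglial content of the astrocyte libraries moved with these genes. The 8 microglial markers summed to 31.6 to 60.8 CPM in sham and to 42.5 to 141 CPM in FPI astrocytes. The 3 FPI libraries with the most Slc11a1, and the most Lcn2, were those with the most microglial markers, at 119, 110.3 and 141 CPM. Slc11a1 amounted to 0.67% to 1.31% of the microglial marker sum in microglia. In astrocyte libraries it amounted to 0% to 1.15% in sham and, in FPI libraries 1 to 5, to 3.12%, 2.16%, 0%, 0.771% and 1.25%. FPI libraries 1 and 2 thus exceeded the ratio of every microglia library. The neutrophil markers were at or near 0, with 7 of 8 at 0 in every FPI astrocyte library and sums of at most 1.01 CPM in sham and 0.751 CPM in FPI. Lcn2 was low in microglia themselves, at 0 to 5.75 CPM in sham and 0 to 4.82 CPM in FPI microglia, beside 0.469 to 5.38 CPM in FPI astrocytes. The part of microglial RNA in these levels was not tested.

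Between the cell types, 6 of the 10 genes were called, 4 of them higher in microglia and 2 higher in astrocytes. Of 15077 genes tested 64.2% were called in this contrast, so that the share among the 10 was close to that of all genes. The genes higher in microglia were Slc11a1, Slc40a1, Ftl1 and Hmox1. Slc11a1 differed most, with a log2 difference of 8.32 ± 0.40 (SE), and its libraries ran from 154 to 209 CPM in microglia and from 0 to 3.71 CPM in astrocytes. This gene passed the filter only through microglia, and the size of its difference rests on 0 to 36 counts in the astrocyte libraries. Slc40a1 followed with 3.26 ± 0.26, Ftl1 with 2.21 ± 0.13 and Hmox1 with 2.07 ± 0.26 (log2 difference, SE). For Ftl1 and Slc40a1 the lowest microglia library exceeded the highest astrocyte library, at 228 against 113 CPM and at 78.5 against 20.2 CPM. The genes higher in astrocytes were Tfrc and Cp. Tfrc ran from 9.28 to 22.4 CPM in microglia and from 57.9 to 124 CPM in astrocytes, a log2 difference of -2.53 ± 0.19, and Cp from 2.04 to 31.5 and from 24.0 to 172 CPM, a log2 difference of -2.58 ± 0.43 (SE). All 6 had an adjusted p of 1.61e-05 or less by edgeR, and 6 were called in each of the 20 fits without a library and by DESeq2. Where at least 10 counts were required in every library, Slc11a1 was not tested and 5 were called. Lcn2, Slc11a2, Trf and Fth1 were not called, with log2 differences of 1.16 ± 0.82, 0.19 ± 0.13, -0.22 ± 0.30 and -0.23 ± 0.15 (SE). Trf and Fth1 are the genes that followed the oligodendrocyte markers in astrocyte libraries, and without the astrocyte libraries of the 3 animals that gave both cell types the log2 difference of Trf was 0.24.

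Per kb of exon the genes fell into a different order in each cell type. In sham microglia the levels per kb were 193 CPM for Ftl1, 134 for Fth1, 47.9 for Slc11a1, 12.1 for Slc40a1, 11.5 for Hmox1, 7.22 for Trf, 3.70 for Slc11a2, 2.52 for Tfrc, 1.18 for Cp and 0.71 for Lcn2. In sham astrocytes they were 208 CPM for Fth1, 51.2 for Ftl1, 16.3 for Tfrc, 8.02 for Trf, 6.98 for Cp, 3.86 for Slc11a2, 3.55 for Hmox1, 1.21 for Slc40a1, 0.117 for Lcn2 and 0.045 for Slc11a1. Ferritin stood at the top of both orders, followed by Slc11a1 in microglia and by Tfrc in astrocytes. The order depended on the length used. With the mean transcript length Fth1 stood above Ftl1 in sham microglia too, at 515 against 341 CPM per kb. Slc40a1 and Hmox1 in sham microglia differed by less than their spread between libraries per kb of exon, but stood at 72.3 and 17.3 CPM per kb by mean transcript length, where Hmox1 also lay below Trf at 22.3 and Slc11a2 at 17.5. Trf and Cp in sham astrocytes changed places, at 24.8 and 32.9 CPM per kb by mean transcript length. Trf is uncertain in any such order, because 63.5% of its exonic bases lie within Gm20425 on the same strand, which is listed at 0 in every library, and reads there may have been assigned to neither gene.

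The balance of the ferritin chains separated the microglia libraries from the astrocyte libraries, and no difference with FPI was shown. This balance is the number of Ftl1 counts per Fth1 count, a ratio within each library that no scaling of libraries can alter. It was 0.559 ± 0.068 in sham and 0.530 ± 0.0688 in FPI microglia, and 0.103 ± 0.0265 in sham and 0.116 ± 0.0607 in FPI astrocytes (SD, n = 5 each). An exact permutation test of FPI against sham gave p = 0.492 in microglia and p = 0.778 in astrocytes, two-sided. The 10 microglia libraries ran from 0.446 to 0.630 and the 10 astrocyte libraries from 0.0578 to 0.220, without overlap, and the mean ratio was 4.99-fold higher in microglia. In astrocyte libraries the ratio was lowest in sham library 4, the library with the most oligodendrocyte markers. It was highest in FPI library 5 and sham library 3, at 0.220 and 0.124, the libraries with the fewest of these markers. Fth1 followed these markers in astrocyte libraries, and no such relation was shown for Ftl1. The part of oligodendrocyte RNA in the ratio was not tested.

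**Figure D4:**
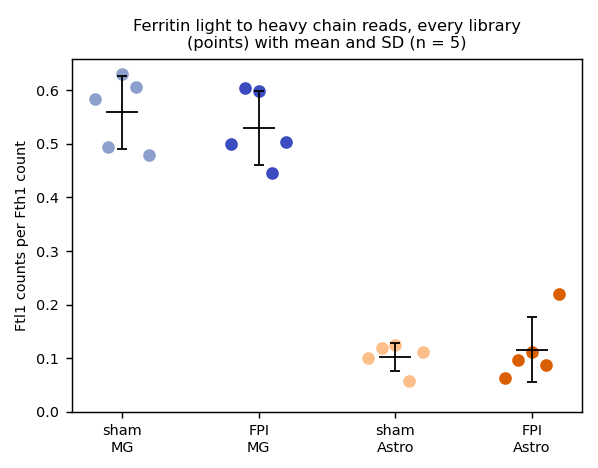
Number of Ftl1 counts per Fth1 count (y axis, linear from 0) in every library (points) of the 4 groups, with the mean and SD of 5 libraries (bars). The microglia (MG) libraries lie between 0.446 and 0.630 and the astrocyte (Astro) libraries between 0.0578 and 0.220, and sham and FPI overlap in each cell type.

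Whether FPI acted differently on these genes in microglia and in astrocytes was tested as the difference of the FPI effects over all 20 libraries. None of the 10 genes was called by edgeR, where 0.199% of 15077 genes were. An unadjusted p below 0.05 was reached by 3 of the 10, Fth1, Ftl1 and Slc11a1, and by 7.02% of all genes tested. The difference (microglia minus astrocytes) was 0.82 ± 0.31 for Fth1 (adjusted p = 0.548 by edgeR) and 0.59 ± 0.26 for Ftl1 (adjusted p = 0.648 by edgeR) on the log2 scale (SE). The rise of ferritin in microglia was thus not shown to differ from the change in astrocytes. For Slc11a1 the difference was -2.87 ± 0.83 (adjusted p = 0.282 by edgeR), but this gene passed the filter only through microglia, and the value rests on the 0 to 36 counts of the astrocyte libraries given above. DESeq2 called it, at -3.02 with an adjusted p of 0.0362. Of the 20 edgeR fits that left out a library 1 called it, the fit without FPI astrocyte library 3, which had 0 counts of the gene (-3.21, adjusted p = 0.0435), and the adjusted p ran up to 0.46 in the others.

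No gene of the wider iron and heme machinery was called in microglia. In a list of 63 other genes in 7 groups (iron uptake and reduction, storage and chaperones, export and its control, iron sensing, heme and hemoglobin uptake and breakdown, heme synthesis, and mitochondrial iron with iron-sulfur clusters), 62 were matched and 45 passed the filter in microglia. None of the 45 was called by edgeR or by DESeq2. At an unadjusted p below 0.05, 2 were higher in FPI and 2 lower, beside 907 and 470 of all 12143 genes tested. The median log2 fold change was 0.013, beside -0.009 over all genes tested. Among those of smallest p were Pcbp2, an iron chaperone that delivers iron to ferritin, with a log2 fold change of 0.38 ± 0.13 (adjusted p = 0.197 by edgeR) and Slc25a37, which carries iron into mitochondria, with -0.53 ± 0.18 (adjusted p = 0.199 by edgeR). Pcbp2 was at 113 ± 10.1 CPM in sham and 144 ± 21.1 CPM in FPI microglia, and Slc25a37 at 56.3 ± 13.9 and 38.7 ± 8.98 CPM (SD, n = 5 each). For Pcbp2 the lowest FPI library lay just above the highest sham library, both at 122 CPM as rounded, and for Slc25a37 the groups overlapped. The 5 genes of iron sensing, among them the iron regulatory proteins Aco1 and Ireb2 that bind the elements shown above, were all tested, and their log2 fold changes had a median of 0.082 and a highest value of 0.18. Named here after their values were seen, Cd163, the hemoglobin scavenger receptor, Hfe, the hemochromatosis gene, and Slc25a37 were called lower in some other fits. Cd163 was called with no filter (log2 fold change -1.35, adjusted p = 0.0823 by edgeR) and in replicates 1 to 3 alone (-1.41, adjusted p = 0.00439), Hfe in replicates 1 to 3 alone (-0.72, adjusted p = 0.0390), and Slc25a37 without FPI microglia library 3 (-0.63, adjusted p = 0.0824). Cd163 is also known as a marker of macrophages, and the summed macrophage markers, which did not include it, were 18.6 to 404 CPM in sham and 22.6 to 257 CPM in FPI microglia. Their part in it was not tested.

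In astrocytes 51 of the 62 genes passed the filter, of which 0 were called by edgeR, 0 by DESeq2 and 0 had an unadjusted p below 0.05. Of all 13741 genes tested there 216 were higher and 103 lower in FPI at that p. The median log2 fold change was -0.014, beside -0.005 over all genes tested. The 3 of smallest p were Flvcr2, Ppox and Heph, each at an adjusted p of 0.999 by edgeR. Flvcr2, listed here under heme uptake, transport and breakdown, had a log2 fold change of 0.97 ± 0.47 (SE). Ppox, an enzyme of heme synthesis, had 0.49 ± 0.29, and Heph, a membrane ferroxidase related to ceruloplasmin, had -0.62 ± 0.37 (SE). Heph was at 36.8 ± 23.1 CPM in sham and 23.5 ± 5.21 CPM in FPI astrocytes (SD, n = 5 each). Of 53 genes tested between the cell types 18 were called higher in microglia and 23 higher in astrocytes, and of the 4 tested for export and its control 1 and 3. Over all 15077 genes tested 64.2% were called in this contrast, so most genes of any list would be called. The difference of the FPI effects was called for 0 of the 53 by edgeR and by DESeq2. An unadjusted p below 0.05 was found for 5 of them, and for 7.02% of all genes tested.

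**Figure D5:**
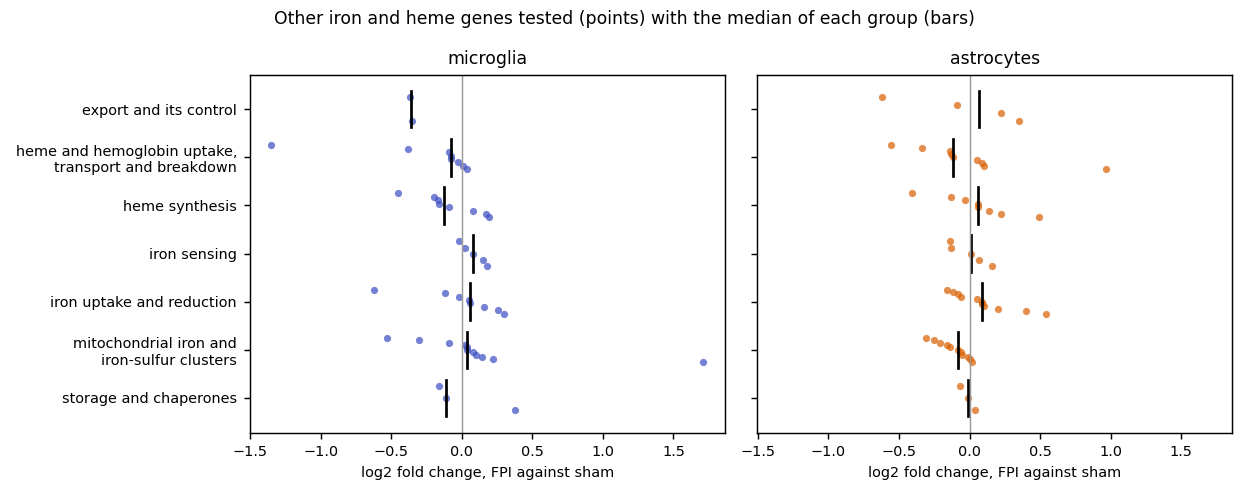
Log2 fold change of FPI against sham (x axis) for the other iron and heme genes tested in microglia (left) and astrocytes (right), 1 point for each gene in 7 groups (y axis), with the median of each group as a black bar. Medians lie between -0.359 and 0.082 in microglia and between -0.119 and 0.09 in astrocytes, and no gene was called in either cell type.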

How the data were processed

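The authors deposited raw gene counts (whole numbers, not normalized) for the 20 libraries. Per the labels and the study's methods, total RNA of cells sorted from single animals was made into stranded libraries with a kit for picogram inputs, and reads were aligned to mm10 (GRCm38.p6) with HISAT2 2.1.0 and, per the submitters' processing notes, counted with featureCounts, whose version and settings for strand and multiple matches are not given in the sources used here. Strand errors or reads shared between overlapping or near-identical genes could therefore alter single genes. Groups were taken from the titles. The combined table and the library files held the same counts.

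FPI and sham were compared separately in microglia and astrocytes by the quasi-likelihood test of edgeR 4.0.16 under R 4.3.3, after filterByExpr and TMM scaling, with Benjamini-Hochberg adjustment over all genes tested. Calls needed an adjusted p under 0.1 and a log2 fold change beyond 0.6 in either direction, the study's own thresholds. The contrast of the cell types and the difference of the FPI effects (called at an adjusted p below 0.1) used all 20 libraries as independent, although 3 animals gave both cell types. Genes under the filter and the ferritin ratio were compared by exact permutation tests over libraries, two-sided, and relations with marker sums by permutation tests with 100000 resamples. These tests took FPI astrocyte libraries 2 and 5, which carry the same animal number, as separate. Exon lengths and elements came from GENCODE M21 on GRCm38. The 10 genes, the other iron and heme genes and the marker lists were chosen with earlier results of these data known. The genes named are the 10 in every comparison and, of the wider list, those called in either cell type and the 3 of smallest p in each, with exceptions stated. For microglia 1 gene that this rule names is not reported here. Alternatives were DESeq2 1.42.0, RLE factors, other filters, robust empirical Bayes, another call rule, a replicate block, a term for the animal number series, FPI astrocyte libraries 2 and 5 summed, all libraries fitted together, and each library left out. Fits of microglia replicates 1 to 3 alone and 4 and 5 alone were chosen after seeing the data. Scripts were tested on simulated data. Tables and plots were made in Python 3.11.15 using matplotlib 3.10.9, scipy 1.17.1, pandas 2.3.3 and numpy 2.4.6.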

Additional observations from a re-analysis of the deposited data

How the results depend on the processing

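In microglia Fth1 and Ftl1 were called in all 20 other fits, and 2 of the 10 genes were called in most of them, 3 where Hmox1 joined. The labels give no meaning to shared replicate numbers, and the samples were not taken as paired because not every same-numbered sham and FPI pair had deviations correlated over 0.1. In microglia the correlations were -0.066 to 0.0924. In astrocytes 4 of 5 were 0.245 to 0.452 and 1 was -0.00927, and 3 of the 5 were higher than with any other number, so a shared source of spread there was not settled. With the replicate block Fth1 stood at 0.87 (adjusted p = 0.00258) and Ftl1 at 0.79 (adjusted p = 0.0129, edgeR), no member's call changed in either cell type, Cp in astrocytes stood at 0.29 (adjusted p = 0.999, edgeR), and Slc40a1 there turned to 0.05. All genes called in astrocytes numbered 11 with the block instead of 1, 39 by DESeq2, 53 with all 20 libraries together, 9 with every gene kept, and 0 with at least 10 counts in every library, with robust empirical Bayes, at an adjusted p under 0.05 with no minimum fold change, or with FPI libraries 2 and 5 summed, where Slc40a1 stood at 0.00. In microglia they numbered 121 instead of 285 with all libraries together and 99 in replicates 4 and 5 alone, where Slc40a1 stood at 0.22. Of the other iron and heme genes 1 was called in microglia with every gene kept and 2 in replicates 1 to 3 alone. Between cell types, all genes called fell from 9683 to 4515 with at least 10 counts in every library, and Trf turned to 0.24 without the astrocyte libraries of mice with both cell types. For the difference of FPI effects DESeq2 called 1 member and 190 genes (30 by edgeR), the stricter filter left 1, and 69 were called without those astrocyte libraries.

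Leaving out 1 library at a time gave 177 (without sham library 2) to 423 (without FPI library 3) genes called in microglia, 0 to 1 of the other iron and heme genes, 0 to 3 genes in astrocytes, and 21 to 48 genes and 0 to 1 members for the difference of FPI effects. Log2 fold changes that changed sign, none of them called, ran in microglia from -0.05 to 0.26 for Tfrc, -0.13 to 1.33 for Lcn2, -0.22 to 0.68 for Cp and -0.21 to 0.01 for Trf. In astrocytes they ran from -0.06 to 0.28 for Fth1, -0.31 to 0.33 for Slc40a1, -0.02 to 0.33 for Hmox1, -0.04 to 0.63 for Cp and -0.23 to 0.55 for Trf. Between cell types Trf ran from -0.31 to 0.06, and for the difference of FPI effects Slc40a1 ran from -0.47 to 0.17, Cp from -0.62 to 0.32 and Trf from -0.64 to 0.10. Beyond what fewer samples or genes bring, the cause of these changes was not tested. Counts of 0 to 43 limit what can be said of Lcn2 and Slc11a1 in astrocytes.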
